A study of Mus musculus with 12 samples.

Results

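The collagen genes of the mouse were followed through 12 RNA sequencing libraries of N9 microglia. Members were all protein-coding rows of the deposited count table whose symbol reads Col, a number, the letter a and a number. That rule found 44 genes among 22046 protein-coding rows and 54532 rows in all, and it used no measured value. N9 is an immortalised mouse microglial line, here as 1 line grown alone, and no genotype was altered. The labels put 3 libraries in each of 4 groups. Control cells were kept in glucose-free DMEM with 5% dialyzed serum, 3 mM glucose and 5 mM fructose, and got no LPS. LPS cells had that medium and then lipopolysaccharide (LPS), a bacterial cell wall component that activates microglia, at 1 µg/ml for 6 h. The glucose and fructose cells had the control medium with 15 mM glucose or 15 mM fructose for 18 h before the same LPS treatment, so both sugar groups carried LPS too. The 18 h in medium applied to all 4 groups. The labels do not say whether 15 mM was the final or the added concentration. No group had a raised sugar without LPS, and none controlled for osmolarity. Below, glucose 1 to 3 and fructose 1 to 3 name these LPS-treated libraries.

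Collagens are secreted or membrane-bound proteins in which chains wind into triple helices. Fibrillar collagens give tissues tensile strength, type IV collagen builds the network of basement membranes, and other classes link fibrils, anchor epithelia or sit in the cell membrane. Fibroblasts are the main makers of fibrillar collagen; microglia, the resident macrophages of the brain, are better known for taking up and degrading matrix than for making it.

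Total counts were 15453776 to 17956772 per library. The 14 microglia and macrophage markers summed to 2080 to 2340 CPM (the count divided by the library total and scaled by 1e+06). CPM of single genes used the total of the tested genes, adjusted by the scaling of the test (TMM). All 14 markers had reads and 11 passed the filter on low counts, but their levels differed widely. Cd68, Csf1r and Spi1 had 128205, 84590 and 75556 counts over the 12 libraries, while Aif1, P2ry12 and Sall1 had 67, 40 and 1. Between libraries of a group the spread exceeded counting error (lowest chi-square per degree of freedom 3.61 for any pair), and no label says that replicates were separate cultures. The p-values therefore measure library-to-library spread alone, part of which may be technical. In the test across 12766 genes, LPS in control medium changed 3677, of which 1941 were higher and 1736 lower. That split depended on the scaling: upper-quartile scaling gave 1622 and 2292, and scaling by totals gave 1412 and 2951. In bulk RNA, fewer cells of a type and less RNA per cell cannot be told apart.

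Collagen RNA was a small part of these libraries. The 44 genes together took 72.2 to 107 CPM. Type IV and VII chains led: Col4a5 held 36.2% of all 16521 collagen counts, Col7a1 22.0% and Col4a6 11.97%, and Col5a3 and Col16a1 followed with 4.59% and 4.50%. The collagen sum was 80.2, 73.2 and 78.5 CPM in control 1 to 3, 72.9, 72.2 and 76.9 in LPS 1 to 3, 80.03, 81.6 and 87.3 in glucose 1 to 3, and 93.4, 107 and 91.5 in fructose 1 to 3. The fructose libraries were above all others, and control and LPS libraries overlapped. These sums include the type I and III chains described below, with 174, 274 and 5 counts in fructose 1 to 3 and 174 in control 1. The other collagen counts were 1373, 1491 and 1409 in fructose 1 to 3. They were 1291 to 1348 in the glucose libraries and 1080 to 1302 in control and LPS.

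Of the 44 genes, 39 had at least 1 read and 16 passed the filter on low counts that precedes the test. Of the 28 below it, 13 had 10 or more counts in all, 10 had 1 to 9, and 5 (Col19a1, Col9a2, Col8a2, Col28a1 and Col6a4) had none. With presence taken as at least 1 count in all 3 libraries of a group, 25 genes were present in at least 1 group, and 14 of these had counts in all 12 libraries. Another 10 had scattered counts that filled no group. Counts in a single library were few and small: Col26a1 had 2 counts, both in control 2, Col9a1 and Col24a1 had 1 each in control 1, and Col13a1 had 1 in fructose 2. No gene with 5 or more counts had over 50% of them in 1 library; among genes with 10 or more, the highest share was 35%, for Col6a1 in fructose 2. The presence rule does not show another dependence on the library: the type I and III chains, described below, were abundant in 6 libraries drawn from all 4 groups and nearly empty in the other 6.

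Promoters of 4 of the 7 collagen genes called in any comparison are shown first, as the 250 bases before the start (RefSeq, GRCm38.p6, 5′ to 3′ on the gene's strand): Col5a3, raised by LPS and again by fructose, Col4a6 and Col6a5, raised by fructose, and Col16a1, lowered by LPS. Capitals mark matches on either strand. In that of Col5a3, on the minus strand at chr9:20815068-20815317, they mark GC boxes 63 to 58 and 41 to 36 bases before the start and a CCAAT box 122 to 118 bases before it. In that of Col4a6, on the minus strand at chrX:141474077-141474326, they mark a GC box 21 to 16 bases before the start. In that of Col6a5, on the minus strand at chr9:105960644-105960893, they mark a gamma-activated site 209 to 201 and a GC box 57 to 52 bases before the start. In that of Col16a1, on the plus strand at chr4:130047590-130047839, they mark a GC box 159 to 154 and a CCAAT box 113 to 109 bases before the start.
Col5a3: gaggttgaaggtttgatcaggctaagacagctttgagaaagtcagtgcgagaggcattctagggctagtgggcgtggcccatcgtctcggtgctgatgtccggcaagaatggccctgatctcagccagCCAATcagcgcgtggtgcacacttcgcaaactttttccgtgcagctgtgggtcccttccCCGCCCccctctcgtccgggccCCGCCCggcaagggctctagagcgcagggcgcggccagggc
Col4a6: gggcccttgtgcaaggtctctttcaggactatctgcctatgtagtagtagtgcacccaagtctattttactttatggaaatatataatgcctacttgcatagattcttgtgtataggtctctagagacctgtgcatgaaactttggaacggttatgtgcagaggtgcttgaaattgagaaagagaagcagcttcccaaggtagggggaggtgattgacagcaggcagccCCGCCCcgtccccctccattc
Col6a5: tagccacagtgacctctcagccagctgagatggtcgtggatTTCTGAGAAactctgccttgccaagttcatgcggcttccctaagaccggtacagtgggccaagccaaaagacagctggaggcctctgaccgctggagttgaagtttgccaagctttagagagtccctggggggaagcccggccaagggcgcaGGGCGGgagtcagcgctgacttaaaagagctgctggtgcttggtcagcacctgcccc
Col16a1: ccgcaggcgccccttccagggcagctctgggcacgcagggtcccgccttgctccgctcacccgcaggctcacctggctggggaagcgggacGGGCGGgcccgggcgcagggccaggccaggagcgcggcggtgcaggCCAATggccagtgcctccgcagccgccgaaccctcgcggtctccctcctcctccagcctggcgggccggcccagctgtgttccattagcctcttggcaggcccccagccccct
RefSeq promoter entries matched 35 of the 44 genes. The motifs searched on both strands, with overlapping matches all kept, were the GC box (GGGCGG; 21 of the 35 genes against 32.7% of all 32851 promoter windows of this length), the CCAAT box (CCAAT; 13 against 33.8%), the TATA box (TATAAA; 5 against 12.4%), the AP-1 site (TGANTCA; 1 against 6.75%) and the gamma-activated site (TTCNNNGAA; 2 against 7.02%). The interferon-stimulated response element (GAAA, any 2 bases, GAAA) and the E-box (CACGTG) were in 0 of 35, against 2.98% and 6.02% of all windows. The kappa-B motif, the site of the NF-kappaB factors that LPS activates, was in 6 of 35 (Col4a2, Col27a1, Col6a2, Col6a4, Col9a1 and Col9a2) against 7.25%. In Col4a2, whose window lies within Col4a1 and is not printed, it was 40 to 31 bases before the start. Of these 6 genes only Col4a2 and Col27a1 passed the filter on low counts, and Col27a1 did not pass with LPS. The other genes called with LPS below, Col5a3, Col7a1 and Col16a1, had no kappa-B match. The 35 genes had 38 windows, and a gene counted where any of its windows matched. A match describes these letters and is not a measured site.

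LPS in control medium asks what the activating stimulus does by itself. Among fibrillar chains it raised Col5a3, and among type IV chains Col4a2. The anchoring fibril gene Col7a1 also rose and Col16a1 fell. In all, 3 of the 16 tested genes rose, 1 fell and 12 did not pass (edgeR quasi-likelihood test, Benjamini-Hochberg adjusted p below 0.05). The 4 called are 25% of those tested, against 28.8% of all genes tested (15.2% higher, 13.6% lower), so the share of collagen genes called lay near the background. Their median log2 change was 0.02, and that of all genes -0.004.

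Col5a3 (ENSMUSG00000004098, chromosome 9, 20770050 to 20815067, minus strand) encodes a chain of type V collagen, which is built into fibrils beside type I and helps set their width. Its counts were 0, 0 and 1 in control, 49, 59 and 63 in LPS, 96, 102 and 66 in glucose and 80, 121 and 122 in fructose. It was near zero without LPS and present in all 9 LPS-treated libraries. In CPM the LPS libraries were at 3.44 ± 0.367 (SD, n = 3), and the log2 change of 7.05 ± 0.55 (SE) had an adjusted p of 1.28e-08, a fitted value that depends on the prior count because control held a single read and that was 8.83 without control 3. From the 171 against 1 reads the ratio is 187 (95% interval 33.1 to 7415, counting error only). High fructose raised it again over LPS alone, to 6.82 ± 1.65 CPM (SD, n = 3; log2 change 0.98 ± 0.23, adjusted p = 0.0140). With high glucose it was at 5.45 ± 1.09 CPM (SD, n = 3) and did not pass (0.66 ± 0.23, adjusted p = 0.196), although the groups did not overlap. The fructose call was lost without LPS 1, LPS 2, fructose 2 or fructose 3 (adjusted p up to 0.0797).

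The other type V chains, with which it can trimerise, had low counts. Col5a2, named after its values were seen, had counts of 16, 10 and 7 in control, 4, 1 and 2 in LPS, 4, 2 and 14 in glucose and 5, 12 and 7 in fructose. Control and LPS did not overlap, and the log2 change of -2.06 ± 0.76 missed the threshold (adjusted p = 0.0516) but passed it with upper-quartile factors, library totals or DESeq2. Col5a1 stayed below the filter with 12 counts over the control libraries, 6 with LPS, 9 with glucose and 14 with fructose.

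Type IV collagen genes lie in head-to-head pairs that share a start region, and each pair can be read against its partner. Col4a2 (ENSMUSG00000031503, chromosome 8, 11312805 to 11449287, plus strand) encodes the alpha-2 chain, which joins alpha-1 chains in nearly all basement membranes. Its counts were 10, 7 and 8 in control, 23, 27 and 33 in LPS, 26, 23 and 18 in glucose and 18, 15 and 10 in fructose. Every LPS library exceeded every control library, from 0.463 ± 0.0968 to 1.67 ± 0.276 CPM (SD, n = 3 each; log2 change 1.84 ± 0.37, adjusted p = 0.00097). Fructose libraries all lay below LPS alone at 0.899 ± 0.228 CPM (SD, n = 3), a difference that did not pass (-0.88 ± 0.35, adjusted p = 0.196). The partner Col4a1, below the filter, had 9, 6 and 7 counts in control, 3, 0 and 0 in LPS, 4, 3 and 4 in glucose and 8, 9 and 0 in fructose. Its LPS sum of 3 against 22 in control gives a ratio of 0.149 (95% interval 0.0285 to 0.495, counting error only), opposite in direction to Col4a2. The exons of both genes overlap at their starts, over 0.295% of Col4a1's exonic bases, and the strand setting of the counting is not given. Rab20, a tested gene 4231 bases beyond Col4a2 on the minus strand, also rose with LPS (1.057, adjusted p = 2.38e-07). Irs2, on the other side of the pair, did not pass (-0.54, adjusted p = 0.168). Atg4a, 1133 bases from Col4a6, rose with LPS (0.445, adjusted p = 0.000392), while Col4a6 itself did not pass.

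Col4a5 and Col4a6 are the second pair, on the X chromosome, and make the alpha-5 and alpha-6 chains of specialised basement membranes. They were the most counted collagen gene and the third in that order. Col4a6 (ENSMUSG00000031273, X, 141165403 to 141474076, minus strand) had 9.11, 9.78 and 9.52 CPM in control, 7.33, 8.18 and 7.76 in LPS, 11.7, 9.33 and 11.7 in glucose and 11.6, 11.04 and 12.2 in fructose. The LPS libraries were the lowest 3 of the 12 and the fructose libraries all exceeded the control ones. The LPS difference of -0.29 ± 0.12 did not pass (adjusted p = 0.0861) but did with upper-quartile factors or library totals. Against LPS alone, Col4a6 rose with high fructose (log2 0.58 ± 0.12, adjusted p = 0.00616) in every leave-one-out fit, and with high glucose (0.49 ± 0.12, adjusted p = 0.0471) in only 2 of 12 such fits, those without glucose 2 or fructose 2; without the others its adjusted p reached 0.190.

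Col4a5 (ENSMUSG00000031274, X, 141475385 to 141689234, plus strand) had 26.1, 30.5 and 29.2 CPM in control, 26.5, 28.6 and 28.5 in LPS, 26.1, 30.6 and 29.96 in glucose and 34.1, 32.6 and 37.6 in fructose. Control, LPS and glucose overlapped, while the fructose libraries stood above all 9 others. It rose with fructose over LPS (0.32 ± 0.09, adjusted p = 0.0402), a call lost without any of 7 libraries: control 3, LPS 1, 2 or 3, glucose 3, and fructose 1 or 3 (adjusted p up to 0.180). On a per-length scale (FPKM), the ratio of Col4a5 to Col4a6 was 3.58 ± 0.158 in control, 4.27 ± 0.105 in LPS, 3.19 ± 0.639 in glucose and 3.56 ± 0.0987 in fructose (SD, n = 3 each). The 3 LPS ratios, 4.15 to 4.35, exceeded all others, of which glucose 2 was the highest at 3.89. Col4a3 and Col4a4, also head to head, had 0 to 8 and 0 to 3 counts per library.

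Col7a1 (ENSMUSG00000025650, chromosome 9, 108953586 to 108984875, plus strand) makes the anchoring fibrils that hold epithelia to the tissue beneath. It was the second most counted collagen gene, with 12.9, 15.6 and 14.8 CPM in control, 16.02, 17.4 and 21.4 in LPS, 22.0, 23.1 and 20.7 in glucose and 18.1, 18.2 and 19.3 in fructose. On this TMM scale every LPS-treated library exceeded every control library. Relative to plain library totals they overlapped: LPS 1 (258 counts of 16363767) lay below control 2 (280 of 17076527). The rise with LPS was small (0.34 ± 0.11, adjusted p = 0.0284). It was lost without control 1, control 3 or LPS 3 (adjusted p up to 0.190), and with upper-quartile factors (0.0554), library totals (0.0956) or limma on log2(FPKM + 0.1) or log2(FPKM + 1) (0.0761 and 0.0718). Neither sugar passed against LPS alone (0.26 ± 0.11, adjusted p = 0.275 with glucose; 0.02 ± 0.11, adjusted p = 0.965 with fructose).

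Col16a1 (ENSMUSG00000040690, chromosome 4, 130047840 to 130099283, plus strand) belongs to the fibril-associated collagens, which lie on the surface of fibrils. Its levels were 5.39, 4.53 and 5.10 CPM in control, 2.92, 2.69 and 3.34 in LPS, 3.67, 3.01 and 3.38 in glucose and 2.90, 4.47 and 2.89 in fructose. All 9 LPS-treated libraries lay below all 3 control libraries. It fell by 0.75 on the log2 scale with LPS (SE 0.20, adjusted p = 0.00910), and the sugar groups, at 3.35 ± 0.332 and 3.42 ± 0.906 CPM (SD, n = 3), did not differ from LPS alone by the test. Of the related genes, Col9a3, in the range of 6 to 24 counts per library, did not pass in any comparison; Col14a1 (3 to 13), Col12a1 (0 to 9) and Col20a1 (0 to 11) were below the filter.

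Col6a5 (ENSMUSG00000091345, chromosome 9, 105856078 to 105960643, minus strand) encodes a chain of the beaded filament collagen type VI. Its counts were 11, 18 and 18 in control, 7, 12 and 15 in LPS, 29, 22 and 17 in glucose and 23, 41 and 28 in fructose. LPS and control overlapped, and every sugar library had more counts than every LPS library. It rose with fructose (0.682 ± 0.232 to 1.93 ± 0.568 CPM, SD, n = 3; log2 change 1.49 ± 0.39, adjusted p = 0.0326) and did not pass with glucose (1.03 ± 0.40, adjusted p = 0.247). Leaving out LPS 1, LPS 2, fructose 2 or fructose 3 ended the fructose call (adjusted p up to 0.167). The other type VI chains were below the filter: Col6a1 had 0 to 14 counts per library, Col6a2 0 to 4, Col6a3 0 to 6, and Col6a6 0 to 4 with no count in the 3 control libraries.

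**Figure D1:**
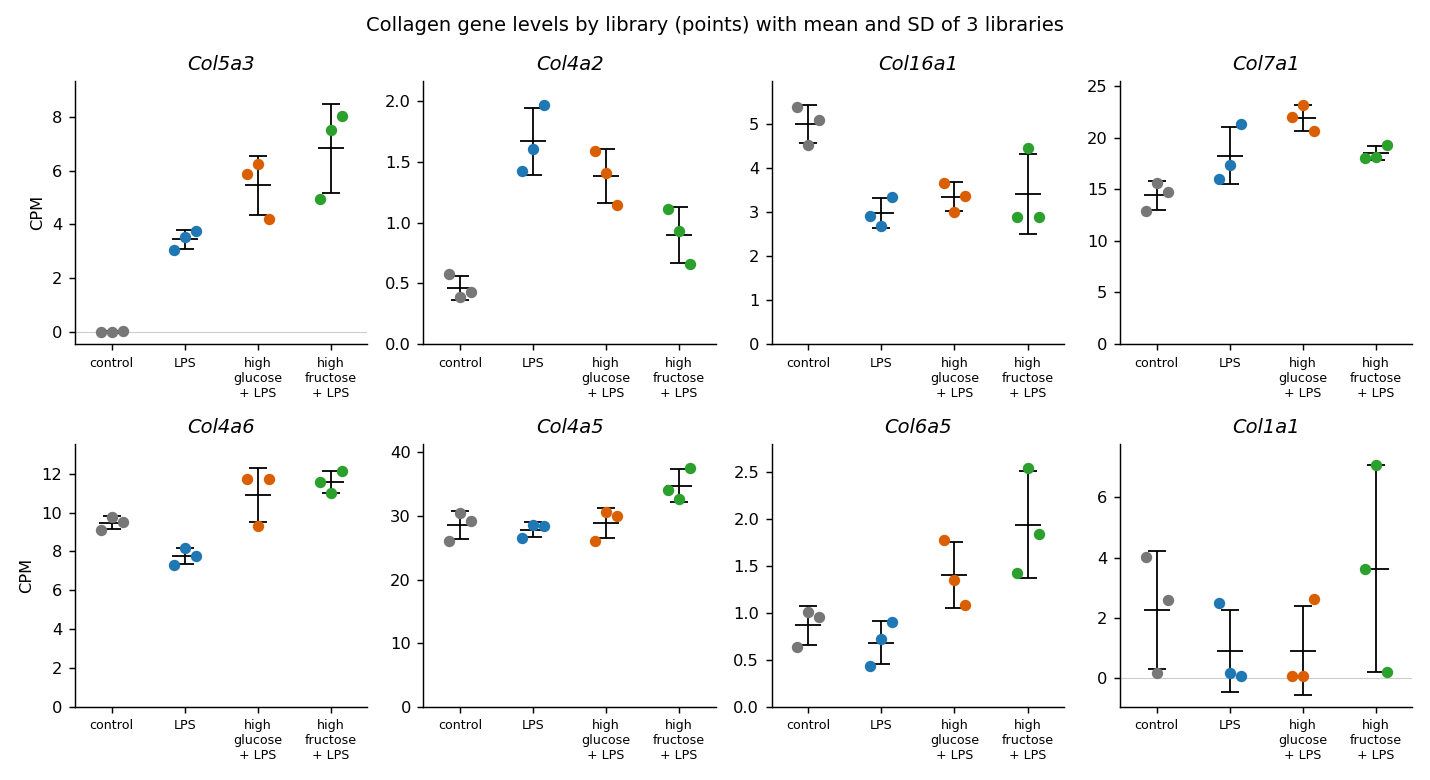
Levels of 8 collagen genes in CPM (vertical axes, scales differ) in each library (points) of the 4 groups, with the mean and SD of 3 libraries (bars). Col5a3 lies near 0 in control and at 3.04 to 8.02 CPM in the other groups, Col4a2 and Col16a1 separate control from LPS, and Col1a1 scatters within every group.

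Against LPS alone, high glucose changed 1 of the 16 tested collagen genes, Col4a6, which is 6.25% against 1.56% of all genes tested (0.587% higher, 0.971% lower). High fructose raised 4 of 16 (Col4a6, Col5a3, Col6a5 and Col4a5) and lowered none, 25% against 4.91% of all genes in either direction (2.37% higher, 2.55% lower). The median log2 change over the 16 was 0.03 with glucose and 0.60 with fructose, against 0.003 and -0.001 over all genes. The fructose median was 0.27 without the 6 libraries rich in Col1a1, described below, and 0.38 and 0.087 with limma on log2(FPKM + 0.1) and log2(FPKM + 1). With fructose, 13 of the 16 changes were positive, and the 3 largest, those of Col1a1, Col3a1 and Col1a2, belong to the chains that differed between libraries within each group. Without LPS 1, LPS 2 or fructose 3 only Col4a6 passed with fructose, and without fructose 2 the count was 2. Of the chondrocyte and osteoblast markers, Runx2 held 3932 counts and was higher in the fructose libraries (448, 427 and 457 counts, against 278, 281 and 261 in LPS), while Comp, Ibsp, Bglap, Sox9, Alpl and Acan totalled 42, 9, 7, 7, 3 and 1 counts over all 12 libraries and Sp7 was at 0. Of the neuron markers, Tubb3 was higher with fructose (521, 507 and 429 counts, against 219, 179 and 231 in LPS), while Map2 overlapped (247, 311 and 216 against 252, 272 and 300) and the other 6 had at most 22 counts in a library. The part of these transcripts in the collagen changes was not tested. The sugar comparisons share the same 3 LPS libraries. Compared directly, high fructose and high glucose differed in 0 of 16 collagen genes (edgeR; 3 at an unadjusted p below 0.05; 0 by DESeq2), with 3.72% of all genes called (1.84% higher and 1.88% lower with fructose). The smallest adjusted p was 0.107, for Col4a5 at 0.27 ± 0.09 (95% interval 0.09 to 0.45). For Col5a3 the difference was 0.32 (95% interval -0.14 to 0.78) and for Col6a5 0.46 (-0.30 to 1.22), so a difference between the sugars was not shown for either, nor that they act alike.

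**Figure D2:**
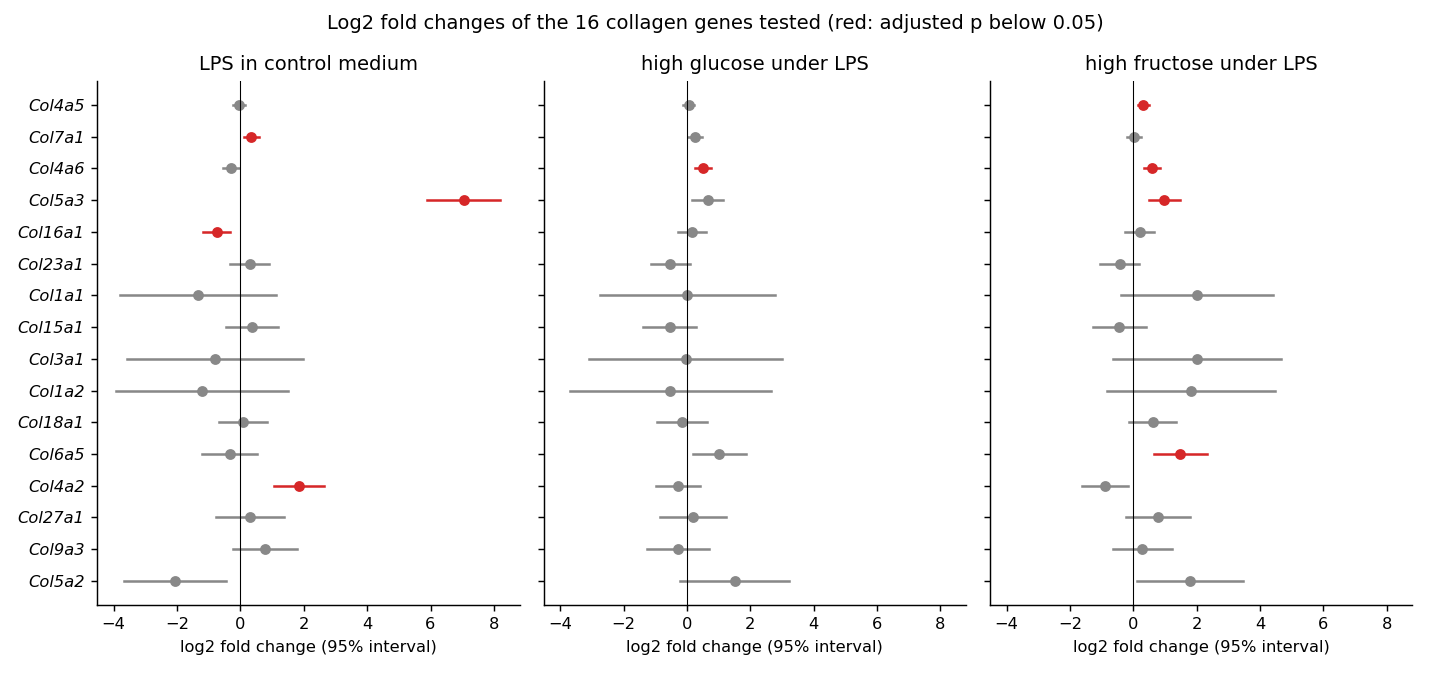
Log2 changes (points) with 95% intervals (bars) on the horizontal axes, which share 1 scale, for the 16 tested collagen genes in 3 comparisons, in red where the adjusted p was below 0.05. The change of Col5a3 with LPS, 7.05, exceeds all others shown, and the intervals of Col1a1, Col1a2 and Col3a1 all include 0.

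The type I and III chains, Col1a1, Col1a2 and Col3a1, form the common fibrils of connective tissue and are the classic products of fibroblasts. Col1a1 had counts of 70, 3 and 49 in control, 40, 3 and 1 in LPS, 1, 1 and 41 in glucose and 59, 114 and 3 in fructose. Col1a2 had 51, 0 and 44, then 36, 1 and 0, then 1, 0 and 24, and lastly 51, 79 and 0 in the same order. Col3a1 had 53, 1 and 17, then 37, 0 and 0, then 0, 1 and 34, and lastly 64, 81 and 2. All 3 genes had their 6 highest counts in the same 6 libraries: control 1, control 3, LPS 1, glucose 3, fructose 1 and fructose 2. Each group thus held both high and low libraries.

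That within-group spread was far beyond counting error. The chi-square per degree of freedom of counts within groups, near 1 where only counting error acts, was 38.2 for Col1a1, 29.5 for Col1a2 and 34.2 for Col3a1. For every other collagen gene with 10 or more counts it was 0.64 to 4.47; it was 0.95 for Col4a6 and 0.64 for Col4a2. None of the 3 passed in any comparison: with LPS the log2 change of Col1a1 was -1.33 ± 1.17 (adjusted p = 0.448), and with fructose 2.02 ± 1.14 (adjusted p = 0.438). A fit with no filter on low counts gave them smaller errors and called Col1a1 and Col1a2 lower with LPS (adjusted p = 0.00147 and 0.0208) and all 3 higher with fructose (3.63e-07 for Col1a1), on the same counts. Leaving out 1 library moved the LPS change of Col1a1 between -4.16 and -0.64 and its fructose change between 1.105 (without fructose 2) and 4.85 (without LPS 1).

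**Figure D3:**
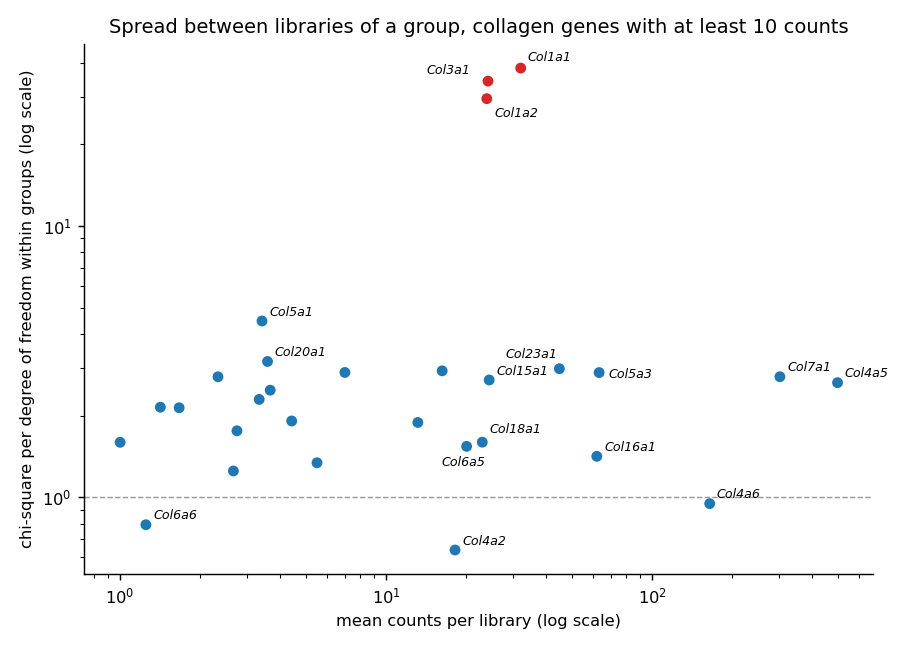
Chi-square per degree of freedom within groups (vertical, log scale) against mean counts per library (horizontal, log scale), 1 point per collagen gene with at least 10 counts; the dashed line marks 1. The type I and III chains (red), at 29.5 to 38.2, stand apart from the rest (blue), at 0.64 to 4.47.

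Several lower genes followed the same libraries. The 6 highest counts of Col6a3 fell in those 6, and Col5a1, Col6a1 and Col6a2 shared 5 of them. So did Col14a1, where fructose 3 tied at 5 counts with libraries among the highest 6. Apart from the type I and III chains, the other collagen genes with 10 or more counts shared 1 to 4. The same 6 libraries held the highest counts of Sparc, a collagen-binding protein named here after its values were seen. Sparc had 43, 0 and 20 counts in control, 36, 0 and 3 in LPS, 3, 4 and 21 in glucose and 48, 59 and 2 in fructose. Of 14 fibroblast markers without collagens, 12 had reads, 2 passed the filter, and Meox1 and Twist2 were at 0. Their summed counts were 69, 12 and 98 in control, 52, 19 and 20 in LPS, 19, 23 and 77 in glucose and 104, 93 and 20 in fructose, so the same 6 libraries held 52 to 104 and the others 12 to 23. Summed in CPM, the range was 0.703 to 5.46 in control, 1.12 to 3.18 in LPS, 1.13 to 4.84 in glucose and 1.29 to 6.28 in fructose. Fn1 and Dcn supplied the most counts, 207 and 140 in all. Not every marker followed the 6 libraries. Lum was at 0 outside them, but Pdgfra had 1 count in control 1 and 9 in LPS 3. Mfap5 was highest in fructose 3 (7), and Fbln1 in glucose 2 (5) and control 2 (3). The part of these transcripts in the collagen counts was not tested.

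**Figure D4:**
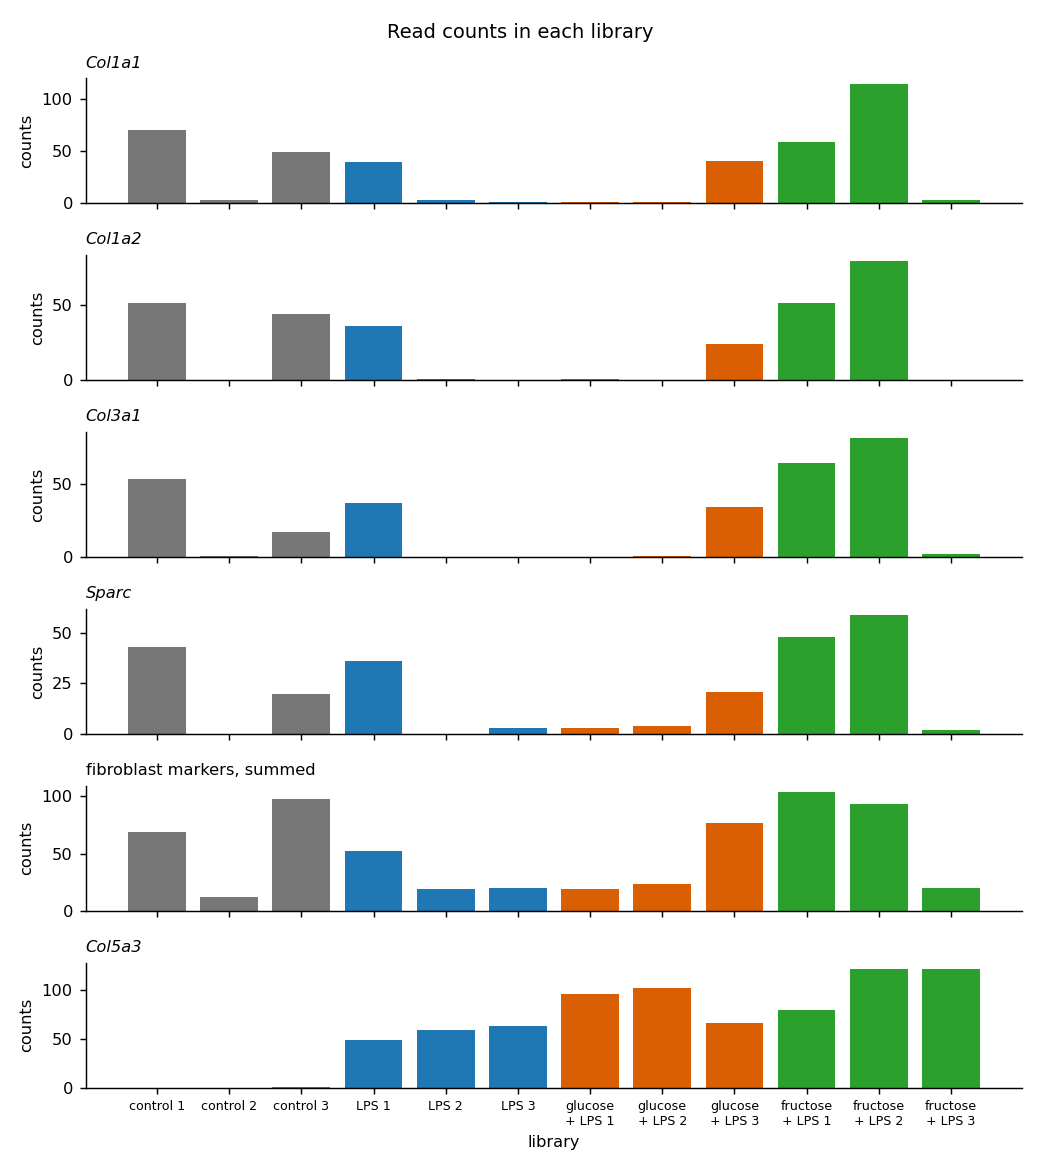
Counts per library (vertical axis) of Col1a1, Col1a2, Col3a1, Sparc, the summed fibroblast markers and Col5a3 in the 12 libraries (horizontal axis), coloured by group. In the upper 5 panels high values recur in control 1, control 3, LPS 1, glucose 3, fructose 1 and fructose 2, while Col5a3 is at 0 or 1 in control and at 49 to 122 in the rest.

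Leaving out those 6 libraries, chosen after seeing the data, left 1 control, 2 LPS, 2 glucose and 1 fructose library, with the lone ones assumed to vary like the rest. Col5a3 and Col4a2 still rose with LPS (2 of the 4 called). The change of Col16a1 was -0.59 ± 0.34 there and did not pass (adjusted p = 0.309), and neither did that of Col7a1 (0.31 ± 0.16, adjusted p = 0.265). The sugar calls on collagen genes were lost in this fit, and the cause was not tested. Its fructose comparison rested on 1 fructose and 2 LPS libraries. The fructose changes of Col4a6, Col5a3, Col6a5 and Col4a5 were 0.61 ± 0.20, 1.14 ± 0.27, 1.18 ± 0.57 and 0.40 ± 0.13. With all libraries they were 0.58, 0.98, 1.49 and 0.32. Calls over all genes also dropped, to 1917 with LPS, 23 with glucose, 171 with fructose and 111 between the sugars.

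The remaining tested collagens did not pass in any comparison. The membrane-spanning Col23a1 had 23 to 63 counts per library, with 61, 47 and 38 in control and 46, 63 and 55 in LPS. Col15a1 and Col18a1, multiplexins whose ends release angiogenesis inhibitors, had 8 to 37 and 14 to 36 counts. Col18a1 was at 1.14 ± 0.25 CPM with glucose and 1.95 ± 0.434 with fructose (SD, n = 3), without overlap, and the difference did not pass (0.77 ± 0.36, adjusted p = 0.303). The fibrillar Col27a1 had 5 to 34 counts. Below the filter, Col11a2 had 0 to 6 counts per library and the membrane collagen Col17a1 0 to 5.

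Genes that modify, move, bind or break down collagen were read from the same fit. As a background, 28.8% of all genes were called with LPS (15.2% higher, 13.6% lower). With LPS, 2 of 11 tested genes of chain hydroxylation and glycosylation rose and 1 fell: the prolyl hydroxylase P4ha1 rose (0.40 ± 0.05, adjusted p = 1.70e-05), the lysyl hydroxylase Plod3 rose (0.26 ± 0.05, adjusted p = 0.000476) and Plod1 fell (-0.41 ± 0.08, adjusted p = 0.000588). Of 12 folding and export genes, Tmem38b rose (0.24) and Creb3l1 fell (-0.50). Of 3 tested genes of procollagen cleavage and crosslinking, the transglutaminase Tgm2 rose (2.10 ± 0.10, adjusted p = 1.51e-11) and Loxl3 fell (-0.54). The integrin chain Itgb1 was the only one of 4 tested collagen receptors to rise (0.14). The list held 11 genes, and none of its integrin alpha chains passed the filter on low counts. The median log2 changes of these 4 lists were -0.01, -0.03, 0.63 and 0.10. The 0.63 is the value of 1 gene, Adamts14, which did not pass (0.63 ± 0.54, adjusted p = 0.429). It was the middle of the 3 tested genes, out of 14 listed for cleavage and crosslinking.

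Of 9 tested genes of collagen breakdown, 4 rose and 1 fell with LPS (median 0.14), against the same background of 28.8%. The collagenase Mmp13 rose by 3.83 ± 0.30 (adjusted p = 1.20e-08), the cathepsin Ctsk by 0.29 ± 0.04, and Ctsl and Ctsb by 0.20 and 0.14, while the collagenase Mmp8 fell (-1.18 ± 0.40). Of 13 TGF-beta pathway genes, which include the main inducers of collagen transcription, Skil and Smad7 rose (0.45 each) and Ski and Tgfbr2 fell (-0.32 and -0.23), with a median of -0.05. Against LPS alone, glucose raised Mmp13 (0.98 ± 0.19, adjusted p = 0.0128) and no other gene of the 6 lists (1.56% of all genes were called), and fructose changed none of them by the edgeR test (4.91% of all genes). Between the sugars, Sec24d (0.23) and Ctsk (0.18) were higher and Tgm2 (-0.36) lower with fructose (3.72% of all genes).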

How the data were processed

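The authors deposited raw read counts per gene, made with featureCounts 1.5.0-p3 on mm10 per the submitters' processing notes, and FPKM values per gene. For the aligner, annotation release and strand setting: not given in the sources used here. Each FPKM equalled the count scaled by gene length and by 1 constant per library. Counts of all genes were tested with edgeR 4.0.16 (R 4.3.3; filterByExpr, TMM, quasi-likelihood test, 1 coefficient per group over 12 libraries, Benjamini-Hochberg over 12766 genes, threshold 0.05), after the script was tested on simulated data. CPM values of single genes were scaled to the totals of the tested genes, adjusted by TMM. Summed CPM values of the collagens and of marker lists were scaled to the library totals. Alternatives used DESeq2 1.42.0, limma 3.58.1, other scalings, no filter, a replicate block and leave-one-out fits. Ratios of low counts have exact 95% intervals on TMM-scaled libraries; these cover counting error only. Gene overlap and shared transcript sequence were checked with GENCODE M21 and BLAST 2.17.0+. Named were members called in any comparison, the 12 of highest mean count, members below the filter with at least 10 counts, and up to 4 genes per other list by smallest adjusted p. The members and lists were chosen with earlier results of these data known.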

Additional observations from a re-analysis of the deposited data

How the results depend on the processing

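Over all genes, counts of calls moved beyond 1.5 times for glucose (199), to 318 with DESeq2, 427 without a filter and 118 and 126 with limma on log2(FPKM + 0.1) and log2(FPKM + 1), and for fructose against glucose (475), to 247 with only the 6 libraries compared. Without the 6 libraries rich in Col1a1 they were 1917, 23, 171 and 111. Leaving out 1 library gave 2992 to 3913 genes with LPS, 67 to 234 with glucose, 426 to 644 with fructose and 332 to 469 between the sugars; the glucose count fell to 67, 74, 71 and 70 without LPS 1, 2, 3 or glucose 3. Collagen calls with glucose (1) were 0 without a filter, with both limma fits, with only the 6 libraries compared and without the 6 Col1a1 libraries. With fructose (4) they were 7 without a filter, 2 with each limma fit and 0 without the 6 libraries. With LPS (4) they were 2 without those 6, and between the sugars (0) they were 3 without a filter. Leave-one-out ranges were 3 to 5, 0 to 1, 1 to 4 and 0 to 0. The cause was not tested. Genes present in all libraries of a group numbered 25, 23 with at least 2 counts, 18 with at least 3, and 26 to 30 when 1 replicate number was left out and 2 libraries sufficed. The sign turned for Col4a6 between the sugars (-0.021 without glucose 2, 0.141 without glucose 1) and for Col4a5 with glucose (-0.0095 without the 6 libraries). Col5a3 and Col4a2 passed with LPS in all 12 leave-one-out fits and all 9 other settings.

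Same-numbered libraries of different groups correlated at -0.19 to 0.24, with 5 of 18 pairs above 0.1. Differently numbered ones correlated at -0.23 to 0.19. These values do not settle whether the numbers pair the samples. With the replicate number as a block in edgeR, 391 genes were called with glucose and 735 between the sugars, against 199 and 475 without it. Between the sugars 1 collagen gene, Col4a5, then passed (adjusted p = 0.0479), and no other collagen call changed.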

Other observations

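Epithelial markers varied between libraries in another order than the type I and III chains. The summed counts of 8 markers were 8, 77 and 15 in control, 2, 1 and 82 in LPS, 0, 392 and 43 in glucose and 93, 1 and 31 in fructose. Alb, the liver's main serum protein, had 2, 155 and 292 counts in control, 2, 0 and 0 in LPS, 2, 106 and 348 in glucose and 934, 0 and 8 in fructose. Of the 6 libraries rich in Col1a1, control 1, LPS 1 and fructose 2 were thus nearly free of Alb counts and control 3, glucose 3 and fructose 1 were not.

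Pericyte and smooth muscle markers summed to 11.1 to 14.7 CPM over the 12 libraries, and 3 of the 9 genes passed the filter. Most of these counts came from Cspg4 (1481 in all) and Acta2 (968). The other genes had from 1 (Kcnj8) to 104 (Des) counts over the 12 libraries. The part of these markers in the collagen levels was not tested.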
